A study of Mus musculus with 36 samples.

Results

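The subject is 10 genes of inflammatory cell death, followed by bulk RNA sequencing in RAW 264.7, a mouse macrophage-like cell line. They were chosen by gene symbol alone and are the sensors Nlrp3, Nlrc4 and Aim2, the adaptor Pycard, the proteases Casp1 and Casp4, the pore-forming Gsdmd, the cytokine Il18, and the necroptosis genes Ripk3 and Mlkl. These are 10 of 53465 genes in the deposited table, and all 10 were among the 16988 genes that had enough counts to be tested. The 36 libraries fell into 12 groups of 3, all wild-type by their labels. They were solvent, lipopolysaccharide (LPS, a bacterial outer-membrane molecule) at 10 µg/mL, melatonin alone at 0.1, 1, 10 and 100 µM and 1 mM, and the 5 combinations of LPS with one of these melatonin doses. Where both agents were used, melatonin came 30 min before LPS, and cells were collected after 12 h of treatment. The study asked how melatonin alters inflammatory activation of these cells and how this depends on concentration. The labels do not state whether replicate libraries derive from separate cultures, so p-values reflect only the spread among libraries, and this may be technical.

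Inflammasomes are complexes in which a sensor protein detects danger in the cytosol and, usually through the adaptor ASC (the product of Pycard), activates caspase-1, which matures interleukin 1 beta and interleukin 18 and cleaves gasdermin D. Cleaved gasdermin D forms pores in the plasma membrane, which ends in a lytic death called pyroptosis. Caspase-11, the product of mouse Casp4, binds cytosolic LPS and cleaves gasdermin D directly, while necroptosis is a separate lytic death in which the kinase RIPK3 activates the pseudokinase MLKL. In macrophages, LPS is known as a priming signal that raises Nlrp3 and Il1b transcripts before any inflammasome forms, and RAW 264.7 cells are known for lacking ASC. Transcript levels, as measured here, say nothing of cleavage or activation.

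Libraries held 4203313 to 7590271 counts, and 3 counts, the most that a zero count is taken to allow, corresponded to 0.388 to 0.598 CPM (counts scaled to library size) in a single library, counting error only. Macrophage markers were all detected (10 of 10, with means over all libraries of 20.9 to 6335 CPM), and 24 markers of other cell types had means of 0 to 0.791 CPM, with S100a9, Ly6g and Krt18 at 0. Ribosomal RNA genes took 0.123% to 1.18% of counts. A pair of libraries without LPS went against their labels. A profile of 117 genes separated LPS with 1 mM melatonin from LPS with 100 µM melatonin. It was chosen without the genes described here. In 1 mM melatonin alone it stood at 33.8% and 23.9% of its full size in replicates 1 and 2. In replicate 3 of that group it stood at 3.19%. In the 1 µM group it stood at 40.1% in replicate 1 and at 2.57% and 0.483% in replicates 2 and 3. The summed macrophage markers split the same way, at 5049, 4861 and 11852 CPM in the 1 mM libraries and 4570, 12917 and 13002 CPM in the 1 µM libraries. Labels were left as given, and the members' tests that use either library (1 mM replicate 3, 1 µM replicate 1) were repeated with both left out. Because both were doubted for their expression, a call gained this way is not independent of that choice.

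At rest the genes covered a wide range of abundance, which is compared here in FPKM (fragments scaled to transcript length and library size), the authors' scale per unit of length. In solvent, Gsdmd had the highest level (70.6 ± 8.32 FPKM, SD, n = 3), followed by the DNA sensor Aim2 (39.6 ± 5.22). Casp1 (12.8 ± 4.93), Nlrp3 (11.6 ± 1.54) and Il18 (10.4 ± 4.00) did not differ beyond their spread. Casp4 (6.49 ± 0.780), Mlkl (4.89 ± 1.56) and Ripk3 (2.63 ± 1.44) had lower means. The libraries of Casp4 still overlapped those of Casp1 and Il18, and the libraries of Mlkl overlapped those of Il18. At the bottom stood Nlrc4, which senses flagellin and bacterial secretion systems together with NAIP proteins (0.352 ± 0.330 FPKM), and Pycard (0.271 ± 0.432). With LPS, Nlrp3 reached 59.0 ± 4.28 FPKM, beside 70.7 ± 5.89 for Gsdmd in the same libraries.

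Pycard and Nlrc4 had too few reads for a statement on any treatment. Over all 36 libraries Pycard had 216 counts in total, with 0 counts in 17 libraries, and its highest level was 3.73 CPM. Nlrc4 had 401 counts, with 0 in 7 libraries and a highest level of 6.36 CPM. Neither passed any of the 22 tests, and differences between their group means were not detectable at this depth. Pycard (chromosome 7, 127989708 to 127993867, minus strand, mm10) also shares 485 of its 3800 exonic bases with Gm45205 on the opposite strand, and the strand setting of the counting is not given in the sources used here.

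LPS against solvent asks what the stimulus alone does to these transcripts. Levels are given in CPM, as mean ± SD (n = 3) where not listed by library, and changes as log2 fold change ± SE from edgeR's quasi-likelihood test with Benjamini-Hochberg adjustment over 16988 genes, where rose and fell mean an adjusted p under 0.05. The sensor Nlrp3 and the necroptosis effector Mlkl rose, whereas Gsdmd, Casp1, Il18 and Aim2 did not pass the test. Nlrp3 (chromosome 11, 59541568 to 59566956, plus strand) measured 54.8, 43.1 and 45.5 CPM in the solvent libraries and 266, 234 and 237 CPM with LPS. The groups were far apart and did not overlap. The log2 fold change was 2.36 ± 0.21 (SE; adjusted p = 7.52e-12). Mlkl (chromosome 8, 111311797 to 111338177, minus strand) measured 12.6, 7.37 and 14.4 CPM in solvent and 50.5, 29.7 and 42.7 CPM with LPS. Its groups did not overlap either, although the LPS libraries spread widely, and the change was 1.84 ± 0.43 (adjusted p = 0.00147). These are 2 of 10 genes, where 16.5% of all tested genes passed, 8.39% upward and 8.09% downward, and the median change of the 10 genes was 0.42 on the log2 scale beside -0.02 over all tested genes. In bulk RNA, fewer cells of a kind and less RNA per cell cannot be told apart.

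Both genes that missed the threshold most narrowly lay higher in all 3 LPS libraries. Casp4, the cytosolic LPS sensor (chromosome 9, 5308828 to 5336783, plus strand), measured 21.4, 27.4 and 24.5 CPM in solvent and 37.4, 65.1 and 65.6 CPM with LPS. The change of 1.20 ± 0.44 had an adjusted p of 0.0544 and was past the threshold under 4 of 12 alternatives (0.00262 to 0.167 over all of them). Ripk3, the necroptosis kinase (chromosome 14, 55784995 to 55788865, minus strand), measured 2.55, 9.25 and 6.58 CPM in solvent and 20.2, 16.6 and 12.0 CPM with LPS. Its change was 1.40 ± 0.51 (adjusted p = 0.0516, past the threshold under 4 of 12 alternatives, 0.0327 to 0.263). Among the others, Casp1 had a change of 0.56 ± 0.35 (adjusted p = 0.31), Il18 of 0.28 ± 0.43 (0.748) and Gsdmd of 0.02 ± 0.20 (0.983). The Gsdmd libraries lay at 115 to 143 CPM in solvent and 117 to 137 CPM with LPS. Aim2, which binds cytosolic DNA, had a change of -0.42 ± 0.19 (adjusted p = 0.136).

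**Figure D1:**
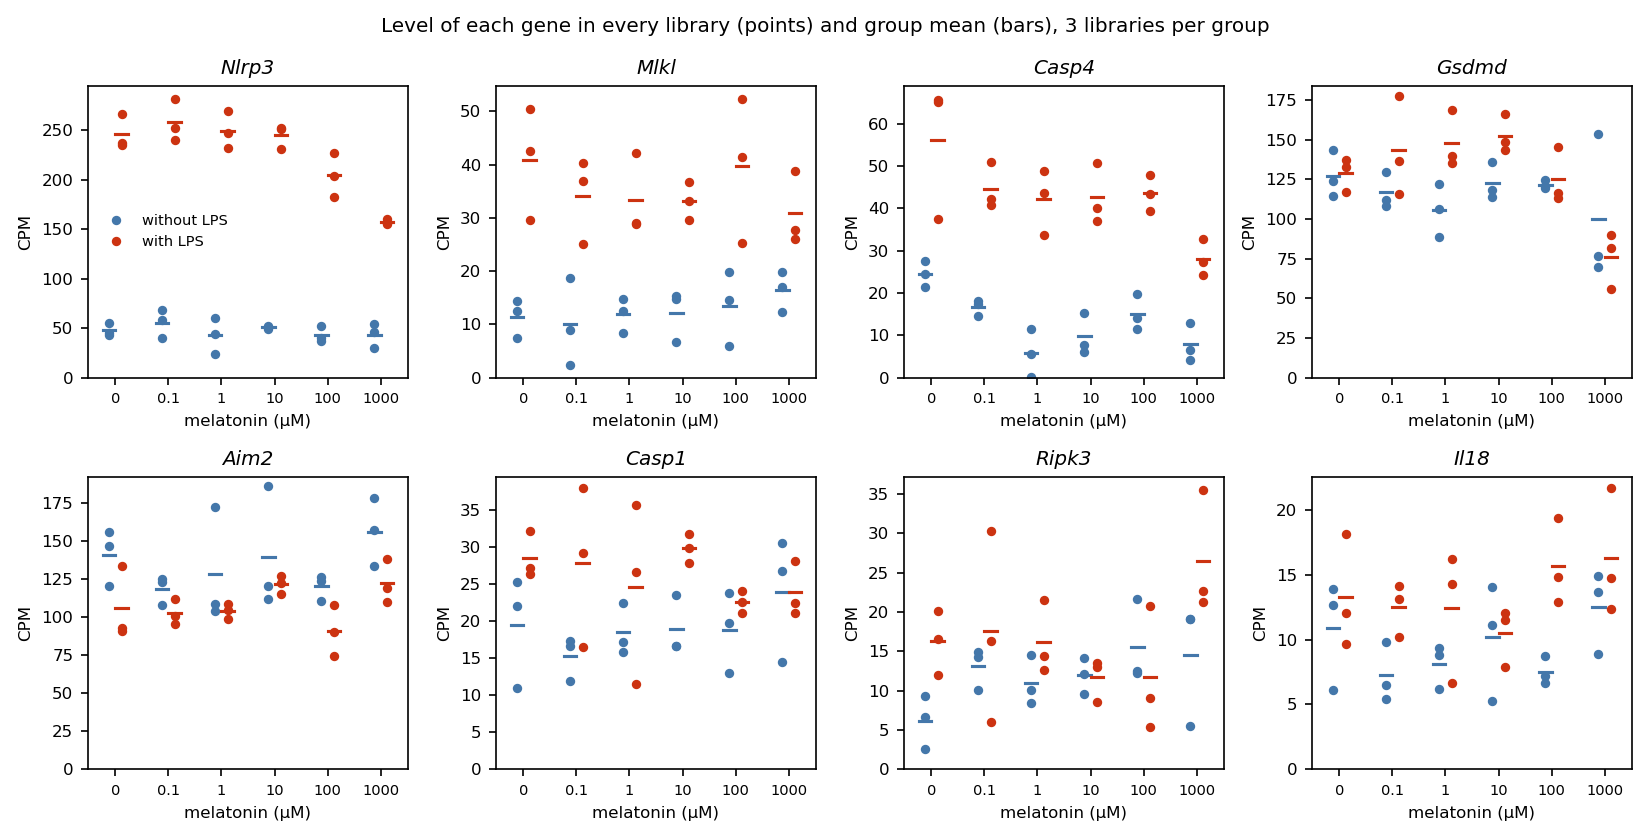
Level in CPM (vertical axis, from 0) of 8 of the 10 genes in every library (points) by melatonin concentration (horizontal axis, categories), without LPS in blue and with LPS in red, with bars at the means of the 3 libraries of a group; Pycard and Nlrc4, both near 0, are left out. Every red point of Nlrp3 and of Mlkl lies above every blue point, from 155 CPM up against 68.5 CPM down for Nlrp3, whereas the colours overlap for Gsdmd, Aim2, Casp1, Ripk3 and Il18.

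The 5 melatonin doses gave the same stimulus in other libraries: at each dose, LPS with melatonin was set against that dose alone, with no library in common with LPS against solvent. Nlrp3 rose at every dose, by 2.22 ± 0.21, 2.54 ± 0.21, 2.27 ± 0.21, 2.25 ± 0.21 and 1.86 ± 0.21 on the log2 scale from 0.1 µM to 1 mM (adjusted p at most 7.92e-09). Casp4 also rose at every dose, by 1.42 ± 0.45, 2.89 ± 0.48, 2.14 ± 0.46, 1.53 ± 0.45 and 1.84 ± 0.46 (adjusted p from 1.24e-05 to 0.0214). Mlkl rose at the 4 lower doses, by 1.75 ± 0.43, 1.49 ± 0.43, 1.45 ± 0.43 and 1.55 ± 0.43, and had a change of 0.91 ± 0.42 at 1 mM (adjusted p = 0.195). So 3 of the 10 genes passed at 0.1, 1, 10 and 100 µM, where 7.95%, 7.98%, 8.44% and 9.06% of all tested genes passed upward, and 2 passed at 1 mM, where 4.87% did. No other of the 10 genes passed at any dose. With both doubted libraries left out the calls at 1 µM and 1 mM were kept: Nlrp3 had 2.26 and 2.05, Casp4 2.31 and 2.40, and Mlkl 1.68 at 1 µM (adjusted p = 0.0163) and 0.94 at 1 mM (0.28). The calls of Nlrp3 held under every alternative run, while single libraries decided some of the others. Casp4 was lost at 0.1 µM without melatonin replicate 1, 2 or 3 or LPS with melatonin replicate 3 (adjusted p = 0.0527 to 0.0861), at 100 µM without melatonin replicate 2 or 3 (0.0717 and 0.0519), and at 1 mM without melatonin replicate 1 (0.051). Mlkl was lost at 1 µM without replicate 2 of either group (0.0739 and 0.0686), at 10 µM without melatonin replicate 2 (0.115), and at 100 µM without melatonin replicate 3 or LPS with melatonin replicate 2 (0.0855 and 0.0565).

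**Figure D2:**
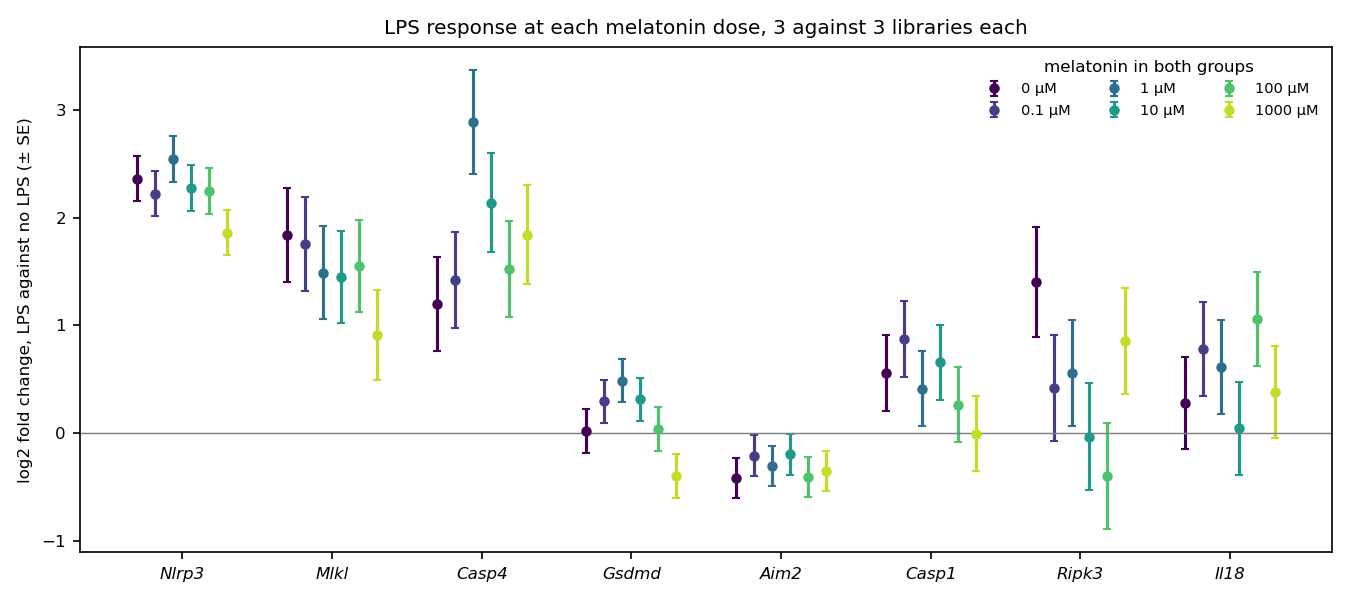
Log2 fold change of LPS against no LPS (vertical axis) for 8 genes (horizontal axis), each with 6 points for the melatonin dose that both groups received, and bars of 1 SE from the edgeR fit (3 against 3 libraries). All 6 points of Nlrp3 lie between 1.86 and 2.54, those of Casp4 and Mlkl are above 0 by more than their bars, and those of Aim2 lie below 0.

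With 15 libraries with LPS set against 15 without (solvent and the 4 doses up to 100 µM), smaller differences could be told from the spread. In this averaged contrast 6 of the 10 genes rose and 1 fell, where 20% of all tested genes rose and 21.7% fell. Nlrp3 rose by 2.33 ± 0.09, Casp4 by 1.83 ± 0.20 and Mlkl by 1.62 ± 0.19 (adjusted p = 3.53e-24, 3.07e-10 and 1.91e-09). Casp1 and its substrate Il18 rose by smaller amounts, Casp1 by 0.55 ± 0.16 (adjusted p = 0.00357) and Il18 by 0.56 ± 0.19 (0.0174, but 0.0846 with no filter on low counts). Gsdmd passed with 0.23 ± 0.09 (0.0355), a call that was lost in DESeq2 (0.053) and without any one of 14 single libraries (0.0502 to 0.088). Aim2 fell by 0.31 ± 0.08 on the log2 scale (0.00261). Ripk3 did not pass (0.39 ± 0.22, adjusted p = 0.164). All 7 calls were kept with the doubted libraries left out.

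For Ripk3 the solvent group stood low beside every other group. Solvent had the lowest of the 12 group means of Ripk3, 6.13 ± 3.38 CPM, and melatonin alone ranged from 11.0 ± 3.13 CPM at 1 µM to 15.5 ± 5.38 CPM at 100 µM, beside 16.2 ± 4.08 CPM with LPS alone. The changes of melatonin alone against solvent were 0.84 to 1.33 on the log2 scale, and none passed (adjusted p from 0.389 to 0.765). At the same melatonin dose, LPS gave Ripk3 differences of 0.42, 0.56, -0.03, -0.40 and 0.86 from 0.1 µM to 1 mM, none past the threshold.

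Across all doses, Nlrp3 and Mlkl were the members whose LPS libraries stood fully apart. Nlrp3 ranged from 155 to 282 CPM (median 235) in the 18 libraries with LPS and from 24.2 to 68.5 CPM (median 47.2) in the 18 without. Mlkl ranged from 25.2 to 52.3 CPM (median 35.0) with LPS and from 2.43 to 19.9 CPM (median 13.5) without. Among all tested genes, 1.95% had all 18 LPS libraries above all 18 others. Casp4 missed this by a narrow margin, with 16 of 18 LPS libraries above the highest library without LPS; the other 2 belonged to LPS with 1 mM melatonin. In the order of its 12 group means, Nlrp3 had gaps without overlap between neighbours at only 3 of 11 steps: between all groups without LPS and LPS with 1 mM, between that and LPS with 100 µM, and between that and LPS with 10 µM. Mlkl had 1 such gap, between the groups without and with LPS, and Casp4 had 2, above 0.1 µM melatonin alone and above LPS with 1 mM. For the other 7 genes every neighbouring pair of groups overlapped.

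The genes whose 12 group means followed these members most closely are given as a description, with Pearson's r over 12 groups that share the LPS contrast, among 8917 named genes with a mean of at least 5 CPM. For Nlrp3 they were Ifi44 (r = 0.994), Ccl9 (0.993) and Oas1g (0.993). For Mlkl they were Tbrg1 (0.993), Dusp5 (0.981) and Ifi203 (0.980). For Casp4 they were Ipo4 (0.969), Sdf2l1 (0.967) and Fastkd3 (0.960), and for Gsdmd Lyz2, the macrophage lysozyme (0.977), Serf2 (0.951) and Mitf (0.948). For the 4 remaining members of sufficient level, the highest r ranged from 0.890 for Ripk3 with Sgcb to 0.934 for Casp1 with Evi2a. Among the members themselves, Nlrp3 and Mlkl had r = 0.929 and Nlrp3 and Aim2 r = -0.743.

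The upstream sequences of the 3 members that rose with LPS at most doses are shown as a description. Each line gives 250 bases before the transcript start from RefSeq (build GRCm38.p6), 5′ to 3′ on the gene's strand, for chr11:59541319-59541568 (plus), chr9:5308599-5308848 (plus) and chr8:111338206-111338455 (minus). Capitals mark matches to the NF-kB consensus, searched on both strands.
Nlrp3: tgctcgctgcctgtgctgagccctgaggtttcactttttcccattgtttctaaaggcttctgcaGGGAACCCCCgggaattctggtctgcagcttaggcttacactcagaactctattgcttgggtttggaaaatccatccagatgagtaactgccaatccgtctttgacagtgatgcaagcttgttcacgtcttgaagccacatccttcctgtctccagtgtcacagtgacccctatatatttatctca
Casp4: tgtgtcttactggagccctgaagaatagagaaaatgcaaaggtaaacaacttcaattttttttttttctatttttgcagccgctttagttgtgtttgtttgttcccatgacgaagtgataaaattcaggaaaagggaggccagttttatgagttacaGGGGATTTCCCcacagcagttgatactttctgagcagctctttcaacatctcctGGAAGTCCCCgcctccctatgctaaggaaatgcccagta
Mlkl: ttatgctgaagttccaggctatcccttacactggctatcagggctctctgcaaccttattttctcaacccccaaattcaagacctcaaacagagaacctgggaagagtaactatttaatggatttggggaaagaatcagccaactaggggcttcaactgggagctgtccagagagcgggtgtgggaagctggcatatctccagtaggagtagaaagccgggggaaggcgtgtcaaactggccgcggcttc
Windows of 300 bases (250 before to 50 after a start) were searched for 9 of the 10 genes, 11 windows in all, Gsdmd having none in the table. The strict forms searched on both strands were GGGA and TTCC with any 2 bases between them, the subset of these with any base and then T between them (both of NF-kB type), GAAA repeated after any 2 bases (of interferon-response type) and TTC and GAA with any 3 bases between them (of STAT type). They were in none of these windows, and in 1.47%, 0.411%, 3.44% and 8.3% of 32851 promoter windows. The NF-kB consensus, a looser form added after seeing the data, was in 8.46% of all windows, in both overlapping windows of Casp4 and in 1 of the 2 windows of Nlrp3, the one printed; the other Nlrp3 window held no match. In Casp4 the capitals first span 2 overlapping matches that begin 93 and 92 bases before the start, and then 1 match, on the opposite strand, that begins 39 bases before it. In Nlrp3 the match begins 186 bases before the start. A match is a description of letters in a window and was not tested as a binding site.

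Melatonin with LPS was compared with LPS alone at each dose. At 1 mM, Nlrp3 and Gsdmd fell, 2 of 10 genes where 4.71% of all tested genes fell and 2.84% rose, and the other 8 did not pass. Nlrp3 measured 156, 159.9 and 155 CPM with LPS and 1 mM melatonin, beside 266, 234 and 237 CPM with LPS alone. The 3 libraries agreed closely and lay below every other LPS library. The change was -0.65 ± 0.20 (adjusted p = 0.0365), so that the level stayed above the 68.5 CPM of the highest library without LPS. Gsdmd (chromosome 15, 75862327 to 75867408, plus strand) measured 81.6, 90.0 and 55.8 CPM, beside 133, 137 and 117 CPM with LPS alone. This change was -0.76 ± 0.20 (adjusted p = 0.0119), and all 3 libraries were below the other 15 with LPS (113 to 178 CPM). Casp4 measured 27.4, 32.8 and 24.1 CPM, also below the other 15 LPS libraries (33.6 to 65.6 CPM), with a change of -0.99 ± 0.44 that did not pass (adjusted p = 0.185). Of all tested genes, 3.96% had these 3 libraries below the other 15.

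These calls sat close to the threshold. Nlrp3 was lost when any 1 of the 6 libraries compared was left out (adjusted p from 0.0593 to 0.133) and in a fit of the compared libraries alone (0.062), with changes of -0.59 to -0.68 throughout. Gsdmd was lost without replicate 3 of LPS with 1 mM melatonin (-0.59, adjusted p = 0.103) and in the fit of the compared libraries (0.0787). That replicate had the lowest total of all libraries, 4203313 counts beside 6193467 and 6472789 in replicates 1 and 2. It also stood apart from them, with chi-square values of 41.3 and 40.5 times their degrees of freedom. Between replicates 1 and 2 the value was 15.1. Casp4 was called when the 2 libraries that went against their labels, neither of them in this comparison, were left out of the shared estimate of spread (adjusted p = 0.0259). The summed macrophage markers moved with these genes: they stood at 13329 to 13553 CPM with LPS and 3388 to 4495 CPM with LPS and 1 mM melatonin, where Lyz2 alone went from 8147 to 8424 CPM down to 1327 to 1468 CPM and the other 9 markers from 4905 to 5403 CPM down to 2024 to 3028 CPM. Of these 9 markers, Csf1r and Cd14 had the highest means over all libraries (3136 and 1009 CPM) and weigh most in the sum. The markers other than Lyz2 were not compared singly between these groups. The part of the markers in the falls of Gsdmd and Nlrp3 was not tested.

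The remaining members showed no call with 1 mM melatonin under LPS. Mlkl measured 27.7, 26.0 and 38.9 CPM (change -0.41 ± 0.41, adjusted p = 0.663), within the range of the other LPS libraries. Casp1 had -0.26 ± 0.35 (0.768), Il18 0.29 ± 0.43 (0.793) and Aim2 0.21 ± 0.19 (0.598). Ripk3 had its highest group mean here, 26.5 ± 7.84 CPM, with libraries at 22.7, 21.3 and 35.5 CPM beside 20.2, 16.6 and 12.0 CPM with LPS alone. These groups did not overlap, but the change of 0.70 ± 0.49 did not pass (adjusted p = 0.467), and a library of LPS with 0.1 µM melatonin reached 30.3 CPM.

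Lower doses gave no call under LPS. At 100, 10, 1 and 0.1 µM, edgeR called 0 of the 10 genes (0 also at an unadjusted p under 0.05, and 0 in DESeq2), where 1.18%, 0.371%, 0.612% and 1.36% of all tested genes passed in either direction. Nlrp3 with LPS and 100 µM measured 182, 204 and 227 CPM, all 3 below the lowest LPS library, with a change of -0.27 ± 0.20 (adjusted p = 0.622). At the 3 lower doses its means were 245 to 258 CPM, beside 246 CPM with LPS alone. Gsdmd measured 146, 113 and 117 CPM at 100 µM and had means of 143 to 153 CPM at the lower doses.

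The step between the 2 highest doses does not use the LPS-only libraries. Gsdmd was lower at 1 mM than at 100 µM by a change of -0.72 ± 0.20 (adjusted p = 0.0264), 1 of 10 genes where 3.77% of all tested genes were lower. This call was lost without LPS with 1 mM replicate 3 (0.188), without LPS with 100 µM replicate 1 (0.19) and in the fit of the compared libraries (0.139). The first of these is the library with the lowest total. Nlrp3 differed by -0.38 ± 0.20 over the same step (adjusted p = 0.346). Over the 5 doses with LPS, the slope per 10-fold higher dose was -0.21 ± 0.05 for Gsdmd (adjusted p = 0.00193) and -0.17 ± 0.04 for Nlrp3 (0.0108), 2 of 10 genes where 4.63% of all tested genes had a falling slope. Both slopes held under every alternative run. Without the 1 mM group, no member had a slope past the threshold in edgeR or DESeq2 (0 at an unadjusted p under 0.05), with -0.05 ± 0.06 for Gsdmd and -0.10 ± 0.06 for Nlrp3, and 0.0177% of all tested genes passed.

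**Figure D3:**
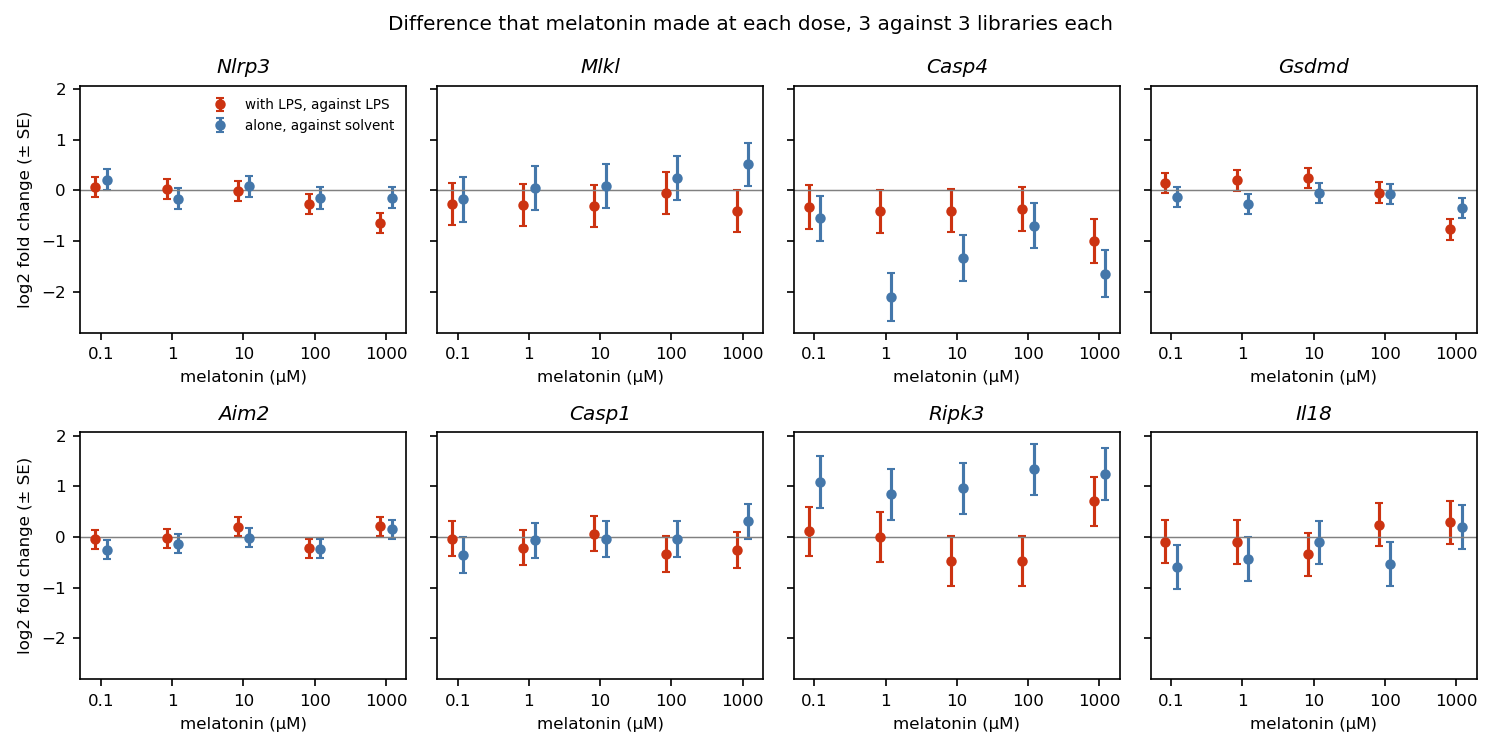
Log2 fold change that melatonin made (vertical axis, 1 scale for all panels) at each concentration (horizontal axis, categories), with LPS against LPS alone in red and without LPS against solvent in blue, for 8 genes, with bars of 1 SE from the edgeR fit. With LPS, Nlrp3 lies within 1 SE of 0 up to 10 µM, at -0.27 at 100 µM (not called) and at -0.65 at 1 mM. Gsdmd with LPS lies at -0.76 at 1 mM and had no call at lower doses. All blue points of Casp4 lie below 0, and all blue points of Ripk3 lie above 0.

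Melatonin alone was compared with solvent to see what it does without the stimulus, with the same 3 solvent libraries at every dose. Casp4 at 1 µM was the only call among the 10 genes at any dose, where 0.0824% of all tested genes fell at that dose. Casp4 measured 17.4, 18.1 and 14.6 CPM at 0.1 µM and 0.152, 11.5 and 5.45 CPM at 1 µM, where the first value is a single count. At 10 µM it measured 7.77, 6.08 and 15.3 CPM, at 100 µM 19.8, 11.5 and 14.1 CPM, and at 1 mM 4.15, 6.48 and 12.9 CPM. All 15 melatonin libraries lay below the lowest solvent library (21.4 CPM), which holds for 0.453% of all tested genes, but the levels did not follow the dose (slope -0.08 ± 0.10 per 10-fold, adjusted p = 0.861). The changes against solvent from 0.1 µM to 1 mM were -0.55 ± 0.44, -2.10 ± 0.48, -1.34 ± 0.45, -0.70 ± 0.44 and -1.64 ± 0.46, with adjusted p of 0.769, 0.0486, 0.582, 0.854 and 0.113. The call at 1 µM was lost without any one of the 3 solvent libraries or without melatonin replicate 1 or 3 (0.0718 to 0.168) and in the fit of the compared libraries (0.65).

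The libraries that went against their labels bear on Casp4 and Gsdmd. Gsdmd at 1 mM measured 69.6 and 76.7 CPM in replicates 1 and 2 and 153 CPM in replicate 3, beside 115 to 143 CPM in solvent. The first 2 were the lowest of the 18 libraries without LPS and the third was the highest of them. With all libraries the change was -0.35 ± 0.20 (adjusted p = 0.529), and without the 2 doubted libraries it was -0.80 (0.00666). That fit leaves replicates 1 and 2 at 1 mM and leaves out the library with the highest Gsdmd level. Both libraries were doubted for their expression, so adjusted p-values without them are not independent of that choice, also for Casp4. Casp4 without them changed by -2.20 at 1 mM (adjusted p = 0.000139) and by -1.52 at 1 µM (0.0325), so that both doses were called. With only replicate 1 of the 1 µM group left out, the change there was also -1.52 but was not called (0.0718). Gsdmd in replicate 1 of the 1 µM group was at 88.4 CPM, the third lowest of the 18. These 3 libraries also had the lowest macrophage marker sums of the 18, whose part in these differences was not tested.

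**Figure D4:**
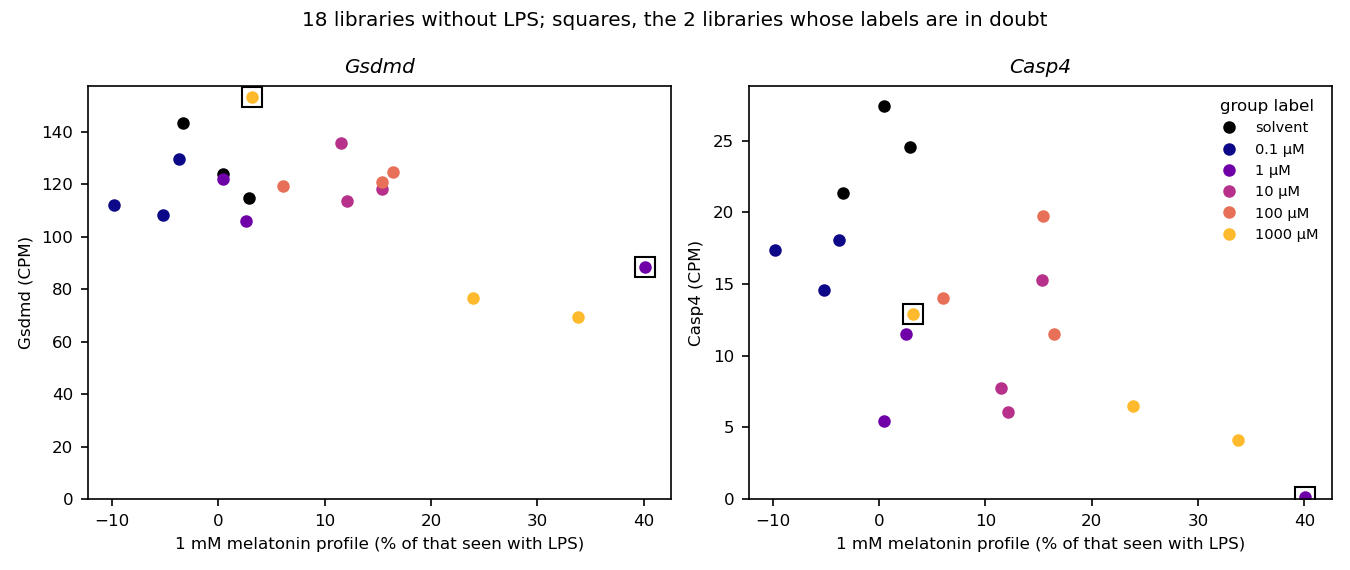
Level of Gsdmd (left) and Casp4 (right) in CPM (vertical axes, from 0) against the 1 mM melatonin profile (horizontal axes, percent of its size with LPS) in the 18 libraries without LPS, coloured by group label, with squares around replicate 3 of 1 mM and replicate 1 of 1 µM melatonin. The 3 libraries with the largest profile, 23.9% to 40.1%, have the 3 lowest Gsdmd levels, 69.6 to 88.4 CPM, and 1 of the squares is among them.

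At 1 mM, edgeR called 0 members, with 2 at an unadjusted p under 0.05 (Casp4 and Ripk3), and Casp4 was called in DESeq2 (-1.65, adjusted p = 0.0491) and with no filter on low counts (0.000846). At 100, 10 and 0.1 µM it called 0 members, with Ripk3, then Pycard and Casp4, and then Ripk3 at an unadjusted p under 0.05, and DESeq2 called 0. At these 4 doses 0.418%, 0.0824%, 0.0824% and 0.341% of all tested genes passed in either direction. Nlrp3 kept means of 42.8 to 55.4 CPM with melatonin alone, beside 47.8 ± 6.18 CPM in solvent, with changes of -0.16 to 0.21. Mlkl had means of 10.0 to 16.4 CPM beside 11.4 ± 3.63 CPM in solvent. Aim2 had means of 119 to 156 CPM beside 141 ± 18.4 CPM, and Casp1 of 15.2 to 24.0 CPM beside 19.4 ± 7.52 CPM. No member had a slope over dose without LPS past the threshold in edgeR or DESeq2 (0 at an unadjusted p under 0.05), where 0.718% of all tested genes did. Without the doubted libraries none passed in edgeR either, but the slopes of Nlrp3, Gsdmd and Casp4 moved to -0.14, -0.13 and -0.25 (adjusted p = 0.0508, 0.0645 and 0.074), from -0.07, -0.02 and -0.08.

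Whether 1 mM melatonin changed the LPS response itself is asked by the interaction, the LPS response with 1 mM melatonin minus that without. No member passed in edgeR or DESeq2 (0 at an unadjusted p under 0.05), where 1.69% of all tested genes did. The differences were -0.50 ± 0.29 for Nlrp3 (adjusted p = 0.497), -0.41 ± 0.29 for Gsdmd (0.599), -0.93 ± 0.59 for Mlkl (0.558) and 0.64 ± 0.63 for Casp4 (0.76). Gsdmd and Casp4 depended on the doubted libraries: with both left out, Gsdmd had 0.04 (adjusted p = 1.00), Casp4 1.21 (0.215) and Nlrp3 -0.31 (0.653), and again no member passed. Mlkl passed for LPS at 4 doses and not at 1 mM, and this test of the difference did not pass.

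A wider list of 71 symbols of the same pathways sets the 10 genes in context. Of these, 69 were in the table and 59 were tested. With LPS alone 20 rose and 6 fell, where 16.5% of all tested genes passed, and the list's median change was 0.55 on the log2 scale beside -0.02 over all genes. Among 15 tested sensors and adaptors 4 rose and 3 fell: Zbp1, which senses unusual nucleic acids and can engage RIPK3, rose from 0.921 ± 0.681 to 52.8 ± 9.43 CPM, and the AIM2-like receptor Ifi204 by 4.01 ± 0.33, while Nlrp10 fell by 2.46 ± 0.47 on the log2 scale. Of 14 inputs of NLRP3 and guanylate-binding proteins 5 rose and 2 fell. Gbp7 rose by 4.29 ± 0.80, and Gbp2, with 0 counts in solvent, was at least 39.7-fold higher, against 3 counts over the 3 solvent libraries. The pair that fell was Nek7, the kinase that licenses NLRP3 assembly (230 ± 19.8 to 163 ± 9.24 CPM), and P2rx7, the ATP-gated channel upstream of NLRP3 (12.6 ± 1.95 to 3.16 ± 1.99 CPM).

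In the 2 downstream groups of the wider list LPS raised 11 of 30 tested genes, where 8.39% of all tested genes rose. Of 12 tested pyroptosis effectors, interleukin 1 family genes and inhibitors, 6 rose and none fell. Il1b went from 1.36 ± 0.581 to 299 ± 29.3 CPM, and its receptor antagonist Il1rn from 46.4 ± 10.3 to 621 ± 84.1 CPM. Of 18 necroptosis inputs and brakes, 5 rose and 1 fell. The brakes Cflar, a caspase-8 partner, and Tnfaip3, a ubiquitin-editing enzyme, rose by 2.16 ± 0.15 and 2.67 ± 0.28, and the adaptor Ticam1, through which Toll-like receptors reach RIPK3, rose by 2.01 ± 0.40. The core kinase Ripk1 (-0.12 ± 0.15, adjusted p = 0.706) and Casp8 (0.29 ± 0.23, 0.442) did not pass.

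With 1 mM melatonin under LPS, 9 of the 59 fell and 3 rose, where 7.55% of all tested genes passed. Il1b went from 299 ± 29.3 to 6.06 ± 4.55 CPM, Il1rn from 621 ± 84.1 to 30.4 ± 4.83 CPM, Zbp1 from 52.8 ± 9.43 to 5.38 ± 0.911 CPM and Ifi204 from 119 ± 12.8 to 26.3 ± 2.42 CPM. Nlrp3 by comparison went from 246 ± 17.7 to 157 ± 2.70 CPM. The 3 that rose were among the 6 that fell with LPS alone, in a comparison that shares the LPS libraries: Nlrp10 (4.38 ± 1.77 to 19.4 ± 6.91 CPM), P2rx7 (3.16 ± 1.99 to 13.9 ± 1.21 CPM) and Nek7 (163 ± 9.24 to 223 ± 13.7 CPM). The call of Nek7 was lost in 5 of its alternatives, among them without LPS replicate 1 or 3 or LPS with 1 mM replicate 2 (adjusted p = 0.0526 to 0.0584), and that of P2rx7 without LPS replicate 3 (0.0552) and in the fit of the compared libraries (0.0504). At 100 µM, 2 of the 59 fell, where 1.18% of all tested genes passed in either direction. They were Il1b (299 ± 29.3 to 46.4 ± 4.62 CPM, adjusted p = 0.24 in DESeq2) and Cflar (337 ± 7.90 to 218 ± 9.47 CPM). The call of Cflar was lost without LPS replicate 3 or LPS with 100 µM replicate 1 or 2 (0.0547 to 0.0811). At 10, 1 and 0.1 µM 0 passed in edgeR, where 0.371%, 0.612% and 1.36% of all tested genes did.

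**Figure D5:**
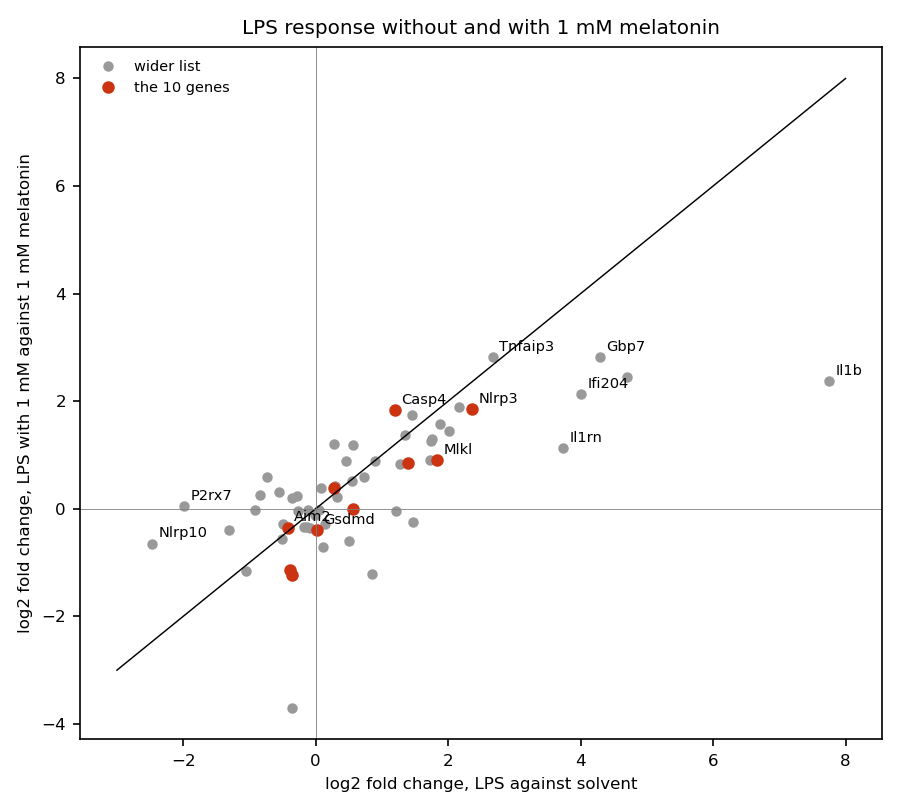
Log2 fold change of LPS against solvent (horizontal axis) and of LPS with 1 mM melatonin against 1 mM melatonin (vertical axis) for the 10 genes (red) and the tested genes of the wider list (grey); the 2 axes share no library, and the line marks equal responses. Genes with 3 or fewer counts in any of the 4 groups are left out, which leaves 60. Nlrp3, at 2.36 and 1.86, lies near the line, while Il1b, at 7.75 and 2.37, and Il1rn lie far below it.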

How the data were processed

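Bulk RNA was sequenced in 36 libraries, with TruSeq libraries from Trizol-extracted RNA per the labels' protocols. The submitters' processing notes name cutadapt (a read trimmer), featureCounts (a read counter) and mm10; the aligner, versions, annotation release and strand setting are not given in the sources used here. Raw counts and FPKM values are used as deposited by the authors, the FPKM only to compare levels between genes. Positions come from GENCODE M21 and promoter windows from RefSeq.

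Counts were tested with edgeR 4.0.16 (R 4.3.3): filterByExpr, TMM (factors 0.914 to 1.19), 1 mean per group over all libraries, quasi-likelihood test, Benjamini-Hochberg over 16988 genes, threshold 0.05. CPM values use TMM-scaled library sizes. The model was tried on simulated data for LPS against solvent only, with upward changes. The simulation gave every gene the same spread between libraries, smaller than the common dispersion fitted here (0.266). It therefore does not measure error rates in these data. Alternatives were DESeq2 1.42.0, DESeq2 size factors, no filter, compared libraries only, a replicate block, leaving out each library, and leaving out 2 doubted libraries. Within groups, no library was a copy of another: all 36 pairs had chi-square values of 9.12 to 41.3 times their degrees of freedom. Pairs of libraries from different groups were not compared.

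The 10 genes, the lists and the motifs were chosen with earlier results of these data known. From the wider list, up to 4 genes per group and comparison with the smallest adjusted p were named, plus Ripk1, Casp8 and genes of counts of 5 or fewer, which were named after their values were seen. One gene of the wider list is not reported here and is left out of its counts. The 3 most alike genes were named for members with a mean of at least 5 CPM.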

Additional observations from a re-analysis of the deposited data

Results flagged for a closer look

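In the wider list, 3 genes had an LPS response that differed with and without 1 mM melatonin by edgeR's interaction test, which 1.69% of all tested genes and none of the 10 genes passed; the lists were not tested against each other. Il1b, the interleukin 1 beta gene, differed by -5.38 ± 1.09 on the log2 scale (adjusted p = 0.00311), a call lost without replicate 1 of 1 mM melatonin (-3.77, 0.366) and in DESeq2 (0.0577). Il1rn, the interleukin 1 receptor antagonist, differed by -2.61 ± 0.54 (0.00364). Its call was lost without the 2 libraries that went against their labels (-1.19, 0.184), without replicate 3 of 1 mM melatonin (0.231) and in the fit of the compared libraries (0.0524). Ifi204, an AIM2-like receptor, differed by -1.88 ± 0.45 (0.0149). This was lost without the 2 doubted libraries (-1.37, 0.116), without replicate 3 of 1 mM melatonin (0.138), without replicate 1 or 2 of solvent (0.0737 and 0.0616) and in the fit of the compared libraries (0.138).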

How the results depend on the processing

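Of 312 recomputed counts of the 10 genes past the threshold, 285 stayed within 1.5 times the reported count and 27 did not, and no called value turned its sign in any alternative run. With no filter on low counts, LPS against solvent gave 4 calls in place of 2 and 1 mM melatonin against solvent 1 in place of 0. Without the 2 doubted libraries these counts were 4 and 2, and 10 µM melatonin against solvent gave 1 in place of 0. DESeq2 called 1 gene for 1 mM melatonin. In fits of the compared libraries alone, the counts fell to 0 for 1 µM melatonin (from 1), for LPS with 1 mM melatonin against LPS (from 2) and for the step from 100 µM to 1 mM melatonin under LPS (from 1). Leaving out each library in turn gave 2 to 4 calls for LPS against solvent, 0 to 2 for 1 mM melatonin, 0 to 1 for 1 µM melatonin, 0 to 1 for LPS with 1 mM melatonin against LPS, 1 to 2 for LPS with 1 mM melatonin against 1 mM melatonin, 1 to 3 for LPS with 100 µM melatonin against 100 µM melatonin, and 0 to 1 for the step from 100 µM to 1 mM under LPS. For single genes, 3021 of 3086 recomputed values of the 10 genes stayed on their side of the threshold, most of them without a call in either fit. From the wider list only the named genes entered, each in comparisons that had called it, and 2101 of 2182 values kept the call. These are unlike sets, and their shares cannot be compared. Values of the 10 genes turned their sign in 186 of the 3086, in all of them without a call in either fit, as for Gsdmd with LPS against solvent (0.02, -0.06 to 0.10). The labels number the replicates, but 0 of 51 pairs of same-numbered libraries had a correlation of deviations over 0.1 (-0.0346 to 0.0336). No pairing by number was thus seen, but this cannot show whether same-numbered libraries share a culture or a batch. The replicate block took the count for 1 µM melatonin from 1 to 0 (Casp4, -2.14, adjusted p = 0.0505). The other 219 of 220 values of the 10 genes, most of them without a call in either fit, stayed on their side of the threshold. Depth limits Pycard and Nlrc4 in every comparison.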

Other observations

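Melatonin alone moved 2 of the 59 tested genes of the wider list, at 1 mM (0.418% of all tested genes passed in either direction) and at 0.1 µM (0.341%). Tnfaip3, which encodes a ubiquitin-editing brake on NF-kB signalling and necroptosis, measured 20.4 ± 3.62 CPM in solvent, 8.08 ± 3.91 CPM with 1 mM and 5.88 ± 2.26 CPM with 0.1 µM melatonin. The changes were -1.34 ± 0.29 and -1.79 ± 0.30 on the log2 scale (adjusted p = 0.0195 and 0.00194), both against the same 3 solvent libraries. The call at 0.1 µM held under every alternative run, and the call at 1 mM was lost without replicate 2 or 3 of solvent, without replicate 2 or 3 of 1 mM melatonin (0.0639 to 0.107) and in the fit of the compared libraries (0.44). Means at 1, 10 and 100 µM were 8.92, 9.95 and 13.9 CPM, with no call. Il1rn changed by -1.75 ± 0.39 at 1 mM (adjusted p = 0.0238), and by -3.17 without the 2 doubted libraries (2.41e-08), where Tnfaip3 changed by -1.01 at that dose (0.0395). The Il1rn call was lost without replicate 2 or 3 of solvent (0.106 and 0.0682), without replicate 1 or 2 of 1 mM melatonin (0.248 and 0.27) and in the fit of the compared libraries (0.44).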
